A study of Mus musculus with 29 samples.

Results

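Primary cardiac fibroblasts of young mice were cultured for 48 h on a stiff or on a soft hydrogel, both carrying matrix of young heart, and their RNA was counted. The comparison is YCF+StiffY over YCF+SoftY, with 3 StiffY and 2 SoftY libraries, and it takes 5 of the 29 libraries of the series, chosen by the title of the sample. YCF stands for fibroblasts of young and ACF for fibroblasts of aged mice, and the other cultured groups were young cells on StiffA and SoftA (aged matrix) and aged cells on all 4 substrates, with 3 libraries each; 6 libraries of freshly isolated cells were not used. All were primary cells taken from heart tissue, with no allele or drug named, and the substrates were DECIPHER hydrogels, in which decellularised heart matrix is held in a synthetic gel so that stiffness and matrix can be set separately. The labels call the libraries biological replicates without tying them to animals, and give neither the age nor the sex of the mice, so p-values measure the spread among these libraries. Xist was counted in all 23 cultured libraries, at 69 to 167 counts, and Ddx3y, Kdm5d and Eif2s3y had 0 counts in each.

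Cardiac fibroblasts build and turn over the collagen network of the heart. They sense the stiffness of that network through integrins and the actin cytoskeleton, and on rigid supports they are known to take on a contractile, myofibroblast-like state, with actin stress fibres and the transcriptional regulators YAP, TAZ and MRTF active in the nucleus. On compliant supports they are known to keep more of the programme of resident fibroblasts, which includes the PDGF receptor alpha, small proteoglycans and complement factors.

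Totals ran from 1192668 to 2556326 counts in the StiffY libraries and from 2277680 to 3080698 counts in the SoftY libraries, so that a level of 10 CPM (counts scaled to the size of the library) rested on 12 to 31 counts per library. StiffY replicate 3 was the shallowest library of the series. Replicates of a group differed by more than counting error, with a chi-square per degree of freedom of 2.07 to 2.43 between StiffY libraries and 5.75 between the SoftY libraries. Between a StiffY and a SoftY library it was 4.73 to 10.2, lowest between StiffY replicate 3 and SoftY replicate 2. That value was under the one of the SoftY pair, but the measure grows with depth and StiffY replicate 3 was shallow. By correlation of log2 CPM the SoftY pair, at 0.965, was closer than that pair across the groups, at 0.953. CPM are not divided by gene length, so they were compared between libraries for 1 gene and not between genes. The libraries carried the RNA of fibroblasts: all 13 fibroblast markers tested were above 10 CPM in each of the 5 libraries. Of neutrophil and lymphocyte markers, 10 of 12 had 0 counts in all 5. So did 8 of 15 cardiomyocyte markers and 6 of 15 Schwann cell, epicardial and erythroid markers. Tnnt2 and Myl4 of the cardiomyocyte list and Upk3b of the last list averaged above 10 CPM. The cardiomyocyte markers summed to 37.1 to 38.1 CPM in StiffY and 32 to 41.2 CPM in SoftY. The last list summed to 17.5 to 23.2 CPM in StiffY and 24.6 to 26.8 CPM in SoftY. In bulk RNA, fewer cells of a type and less RNA per cell cannot be told apart.

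On the stiff gel the libraries of young fibroblasts held less RNA of most resident fibroblast genes and of several complement and lipid genes. By smaller folds, they held more RNA of some cell cycle and p53 target genes. Some contractile genes were higher as well, but most of those calls depended on SoftY replicate 1. Of 12841 genes tested with edgeR's quasi-likelihood test, 272 were higher in StiffY (2.12%) and 314 were lower (2.45%) at an adjusted p under 0.05, 4.56% in all. The lower genes moved further: 157 of them fell by more than 2-fold, against 29 of the higher ones, and the median log2 fold change was -1.0 among the lower genes and 0.61 among the higher ones. Over all genes tested the median was 0.002. In 585 of the 586 called genes no StiffY library overlapped a SoftY library, a pattern that the call itself favours; among all genes tested, StiffY lay above SoftY in every library in 17.1% and below it in 15.8%. The number of calls depended on each SoftY library, with 254 calls (70 higher, 184 lower) without SoftY replicate 1 and 350 (141 higher, 209 lower) without SoftY replicate 2.

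**Figure D1:**
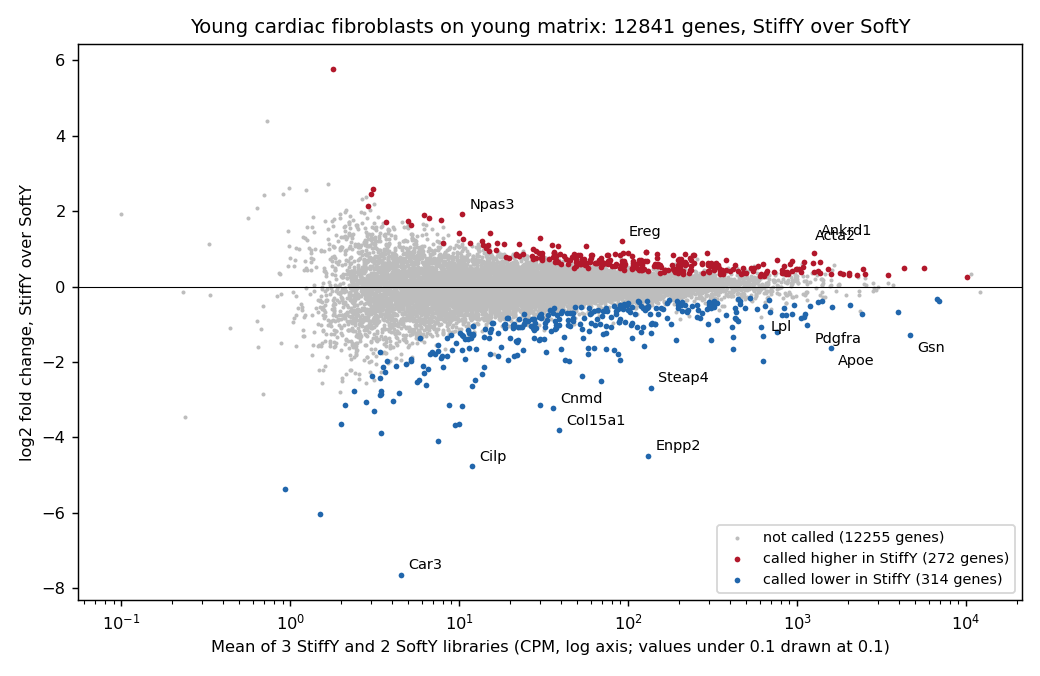
Each point is 1 of 12841 genes, with the mean level over the 3 StiffY and 2 SoftY libraries on a log axis in CPM and the log2 fold change of StiffY over SoftY on the vertical axis. The 314 lower genes reach much further from 0 than the 272 higher genes, and well-counted genes such as Enpp2, Steap4, Apoe and Gsn are among them.

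Among the genes that fell furthest was Enpp2, which encodes autotaxin, the secreted enzyme that makes lysophosphatidic acid. Enpp2 (chr15:54702297-54816289, mm39 as in the deposited table) stood at 12.2, 14.5 and 14.9 CPM in the StiffY libraries, against 318.6 and 297.3 CPM in the SoftY libraries. It was 22.3-fold lower in StiffY, with a log2 fold change of -4.48 ± 0.20 (SE; edgeR adjusted p = 5.84e-14). Col15a1, a basement membrane-associated collagen, had 7.34, 5.50 and 5.81 CPM in StiffY and 95.9 and 81.2 CPM in SoftY, 14.0-fold lower (adjusted p = 1.85e-12). Cnmd, which encodes the cartilage glycoprotein chondromodulin, had 10.2, 5.89 and 9.12 CPM in StiffY and 82.3 and 73.0 CPM in SoftY (log2 fold change -3.23, edgeR adjusted p = 3.03e-09). Cilp, the cartilage intermediate layer protein that is also made by cardiac fibroblasts, was at 1.63, 0 and 1.66 CPM in StiffY and at 22.2 and 34.1 CPM in SoftY. In these genes each StiffY library lay under both SoftY libraries, which the rule for naming them required. At a mean of at least 10 CPM, the other genes among the 12 largest falls were Clec14a, Saa3, Steap4, Col27a1, Atp1b2, Fmo2, Serpina3f and Negr1, with log2 fold changes from -3.17 (Clec14a) to -2.31 (Negr1). None of the 12 lost its call when any 1 library of the comparison was left out.

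Of 27 resident fibroblast genes tested, 18 fell in StiffY and none rose, with a median log2 fold change of -0.83, and between 15 and 18 were lower when 1 library was left out. Pdgfra (chr5:75312953-75358877), the receptor that marks cardiac fibroblasts, had 843.1, 758.3 and 823.5 CPM in StiffY and 1772 and 1515 CPM in SoftY. Its log2 fold change was -1.02 ± 0.10 (SE; edgeR adjusted p = 7.53e-08). Gsn, which encodes the actin-severing protein gelsolin, had 3021, 2842 and 2984 CPM in StiffY and 7407 and 7095 CPM in SoftY (log2 fold change -1.30, adjusted p = 1.54e-10). Fbln1, a matrix glycoprotein of elastic fibres and basement membranes, had 199.5, 177.2 and 175.0 CPM in StiffY and 486.2 and 502.5 CPM in SoftY. The small leucine-rich proteoglycans that bind collagen fibrils fell too: Lum averaged 260.0 ± 8.5 CPM in StiffY and 651.2 ± 22 CPM in SoftY, and Dcn 1916 ± 34 CPM in StiffY and 3149 ± 218 CPM in SoftY (SD, n = 3 and n = 2). Igf1, the insulin-like growth factor, averaged 103.7 CPM in StiffY and 204.0 CPM in SoftY (log2 fold change -0.99, edgeR adjusted p = 7.54e-06). The groups did not overlap in any of these genes, a pattern that the call itself favours. The 9 members that did not pass the test included Tcf21, the transcription factor of the epicardial and fibroblast lineage, at 170.9, 156.4 and 148.4 CPM in StiffY and 98.2 and 162.9 CPM in SoftY.

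**Figure D2:**
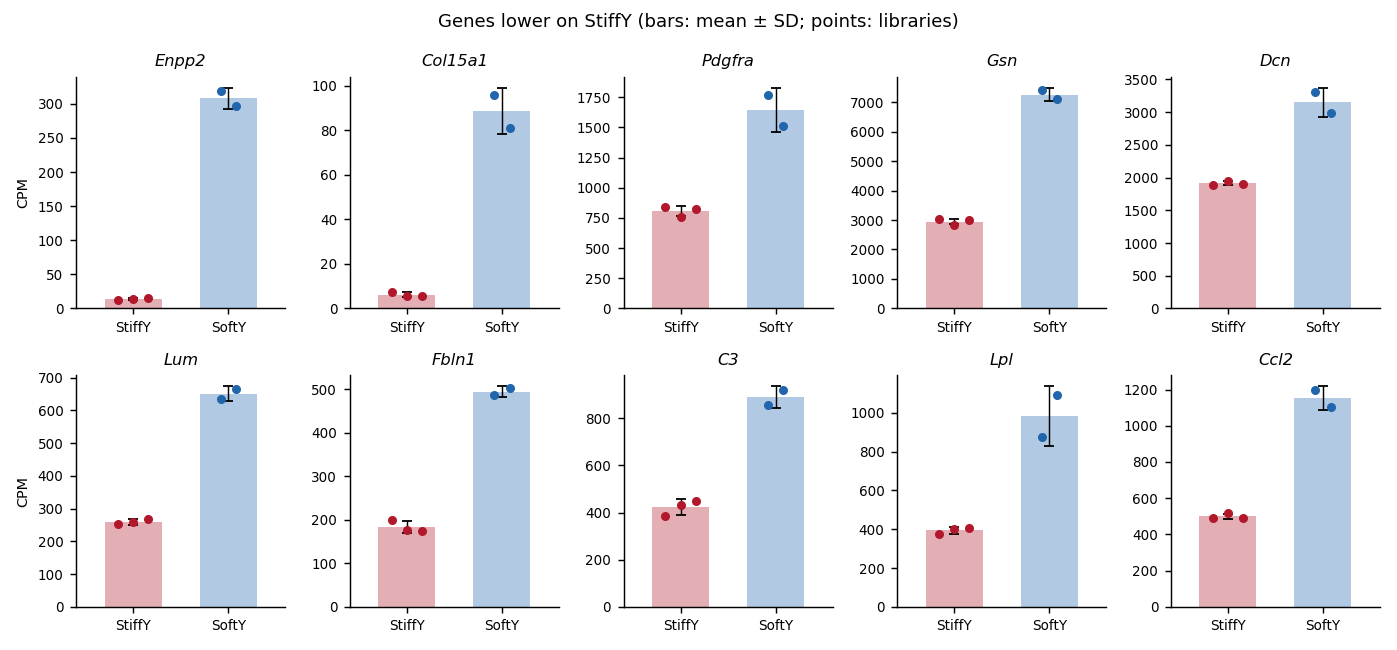
Levels in CPM of 10 genes that were lower in StiffY; points are libraries, bars are means and error bars are SD over 3 StiffY and 2 SoftY libraries. In each panel the StiffY points lie under both SoftY points, from a 22.3-fold gap in Enpp2 to a 1.64-fold gap in Dcn.

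Broad fibroblast markers moved in both directions. Of 13 fibroblast markers tested, 5 fell (Gsn, Pdgfra, Lum, Dcn and Col3a1) and 2 rose (Fn1 and Vim), and the summed level of the markers was 33500 to 34300 CPM in StiffY and 40600 to 43300 CPM in SoftY. None of them was called higher without SoftY replicate 1, while 5 were lower, and without SoftY replicate 2 there were 1 higher and 4 lower. Col1a1, the main fibrillar collagen chain, had 11380, 11840 and 11300 CPM in StiffY and 11970 and 13500 CPM in SoftY, with a log2 fold change of -0.15 ± 0.07 (SE; edgeR adjusted p = 0.334). Postn, the matricellular gene of activated fibroblasts, was low, at 33.9, 31.4 and 30.7 CPM in StiffY and at 46.1 and 49.7 CPM in SoftY (adjusted p = 0.175).

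Complement and acute phase genes act in the first line of defence in blood and tissue. The list of 34 genes was drawn up after the values had been seen, so its counts describe the data and give no support of their own. Of 24 tested, 14 fell and none rose, with a median log2 fold change of -1.03, and 11 were lower without SoftY replicate 1. C3, the central complement component, had 385.1, 431.0 and 451.1 CPM in StiffY and 855.3 and 921.2 CPM in SoftY (log2 fold change -1.07, edgeR adjusted p = 5.27e-09). Serping1, the inhibitor of the first complement proteases, averaged 3184 ± 20 CPM in StiffY and 5076 ± 264 CPM in SoftY (SD, n = 3 and n = 2). Hp, which encodes haptoglobin, had 115.0, 118.7 and 109.5 CPM in StiffY and 311.0 and 307.2 CPM in SoftY, 2.69-fold lower. Saa3, an inducible serum amyloid A gene, had 6.93, 9.43 and 4.15 CPM in StiffY and 73.7 and 56.2 CPM in SoftY. Serpina3f and Serpina3g, also lower, are close copies of each other, so the split of reads between them is uncertain, as it is for C1s1.

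Several genes of lipid handling fell as well. In a list of 33 adipocyte and lipid storage genes, likewise drawn up after the values had been seen, 10 of 22 tested fell and 1 rose (Fasn), with a median log2 fold change of -0.71. Lpl, the lipase that releases fatty acids from lipoproteins, had 373.6, 399.6 and 408.9 CPM in StiffY and 875.2 and 1091 CPM in SoftY (log2 fold change -1.32 ± 0.14, edgeR adjusted p = 6.05e-07). Apoe, the apolipoprotein, is not in that list and was named after its values were seen; it had 879.9, 845.5 and 846.7 CPM in StiffY and 2681 and 2666 CPM in SoftY, 3.12-fold lower. Scd1, the stearoyl-CoA desaturase, averaged 88.9 CPM in StiffY and 206.9 CPM in SoftY. Angptl4, a lipase inhibitor and a target of PPAR receptors, averaged 202.3 CPM in StiffY and 361.7 CPM in SoftY, and Gpam, which starts triglyceride synthesis, 54.9 CPM in StiffY and 115.6 CPM in SoftY. Car3, a carbonic anhydrase abundant in fat and skeletal muscle, had 0 counts in the 3 StiffY libraries and 61 counts in the 2 SoftY libraries, at least 23.4-fold lower if 3 counts over the StiffY group are taken as the floor. Trarg1, a regulator of glucose transport in fat cells, had 0.41, 1.57 and 0.83 CPM in StiffY and 22.2 and 12.5 CPM in SoftY. Pparg, the transcription factor of fat cell formation, had 2.86, 6.29 and 6.64 CPM in StiffY and 12.6 and 13.8 CPM in SoftY, and its call (adjusted p = 0.0448) was lost when any 1 of the 5 libraries was left out, with an adjusted p of 0.0532 to 0.231. Adipoq and Plin1, genes of mature fat cells, had few counts, all of them in SoftY. Adipoq had 0 counts in each StiffY library and 2 and 1 counts in the SoftY libraries, and Plin1 had 0 counts in StiffY and 13 and 6 in SoftY. Fabp4 averaged 8.09 CPM in StiffY and 9.85 CPM in SoftY, and Lipe 22.1 CPM in StiffY and 33.0 CPM in SoftY. Neither passed the test (edgeR adjusted p = 0.823 and 0.144). Whether the SoftY libraries held traces of fat cells was not tested. Fasn, which rose to a mean of 138.4 CPM in StiffY against 100.9 CPM in SoftY, lost its call without either SoftY library and without StiffY replicate 1 or 3 (adjusted p = 0.0602 to 0.479).

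Of 29 chemokines and other NF-kB targets tested, 9 fell and 2 rose (median log2 fold change -0.57), with 6 lower without SoftY replicate 2. Ccl2, the monocyte chemoattractant, had 489.9, 517.0 and 491.0 CPM in StiffY and 1198 and 1106 CPM in SoftY (log2 fold change -1.21 ± 0.08, edgeR adjusted p = 1.91e-10). Ccl7, its close relative, averaged 642.1 CPM in StiffY and 1083 CPM in SoftY. Cxcl12, the ligand of CXCR4, averaged 668.2 CPM in StiffY and 1134 CPM in SoftY. Il33, an alarmin stored in the nucleus of stromal cells, had 6.53, 5.50 and 5.81 CPM in StiffY and 27.2 and 25.1 CPM in SoftY. With 1 library left out, 2 were higher except without SoftY replicate 2, where 1 was. The 2 that rose, Csf1 and Tnfrsf11b, were named after their values were seen and had log2 fold changes of 0.48 and 0.59. Il6 did not pass the test, at 38.3, 50.3 and 52.3 CPM in StiffY and 43.5 and 42.4 CPM in SoftY (adjusted p = 0.817).

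The sums of myeloid and of mural markers were also lower in StiffY, with single genes giving much of the gap. The sum of endothelial markers was not lower. The summed level of 16 myeloid markers was 29.1 to 40.6 CPM in StiffY and 55.3 to 59.1 CPM in SoftY, with Lyz2, the lysozyme gene, averaging 15.4 CPM in StiffY and 32.7 CPM in SoftY (edgeR adjusted p = 0.0271), a call lost without SoftY replicate 1 (adjusted p = 0.266) and without each StiffY library (0.0623 to 0.0878). Of 5 myeloid markers tested, 3 had a negative and 2 a positive fold. Some members with few counts were higher in StiffY, such as Csf1r and H2-Ab1, each with 11 counts in StiffY and 3 in SoftY. The sum of 11 mural markers was 436 to 510 CPM in StiffY and 748 to 843 CPM in SoftY. Of it Steap4, a metalloreductase also known in adipose tissue, gave 38.8, 45.2 and 45.6 CPM in StiffY and 280.5 and 270.5 CPM in SoftY. Of 6 mural markers tested, 5 had a negative fold and Steap4 alone was called. Pdgfrb, the largest part of the sum, had 341, 361 and 390 CPM in StiffY and 381 and 483 CPM in SoftY, so the groups overlapped. The sum of 14 endothelial markers was 541 to 580 CPM in StiffY and 555 to 560 CPM in SoftY, so the groups overlapped. Most of that sum was Eng and Tek, and Eng had 470, 460 and 474 CPM in StiffY and 437 and 457 CPM in SoftY. With these 2 taken out, the other 12 markers summed to 30.2 to 38.7 CPM in StiffY and 55.7 to 62.0 CPM in SoftY. None of the 12 averaged 10 CPM. Of 11 endothelial markers tested, 9 had a negative fold (median -0.40) and 1 was called, Pecam1, which had 2.86, 1.96 and 3.32 CPM in StiffY and 10.6 and 13.8 CPM in SoftY, and its call was lost without SoftY replicate 2 (adjusted p = 0.0519). Clec14a, an endothelial gene outside that list that was named for its large fall, averaged 2.43 CPM in StiffY and 22.3 CPM in SoftY. What these traces contribute to the complement, lipid and chemokine genes was not tested.

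Contractile genes build stress fibres and smooth muscle filaments. Of 20 tested, 9 rose and 1 fell, with a median log2 fold change of 0.29, but without SoftY replicate 1 only 1 rose and none fell. Acta2 (chr19:34218490-34232991), smooth muscle alpha-actin and the usual marker of myofibroblasts, had 1284, 1357 and 1225 CPM in StiffY and 741.8 and 892.7 CPM in SoftY. Its log2 fold change was 0.66 ± 0.14 (SE; edgeR adjusted p = 0.00439), and 0.51 without SoftY replicate 1, where the adjusted p was 0.172. Cnn1, the smooth muscle calponin, had 18.8, 18.5 and 14.9 CPM in StiffY and 5.64 and 9.94 CPM in SoftY, and Cnn2, a calponin of non-muscle cells, 667.3, 712.7 and 631.1 CPM in StiffY and 432.1 and 491.7 CPM in SoftY. Lmod1, which nucleates actin filaments in smooth muscle, averaged 61.2 CPM in StiffY and 34.8 CPM in SoftY. The groups did not overlap in these 4 genes, a pattern that the call itself favours. Without SoftY replicate 1 the calls of Cnn1, Cnn2 and Lmod1 were lost. Their log2 fold changes were then 0.81, 0.43 and 0.74, against 1.21, 0.54 and 0.84 with all libraries. Cnn1 also lost its call without any 1 of the StiffY libraries (edgeR adjusted p = 0.0541 to 0.122), and Lmod1 without StiffY replicate 2 (0.0594). Mylk, the myosin light chain kinase, was the member that fell, to a mean of 14.7 CPM in StiffY against 26.7 CPM in SoftY, and its call was lost without any 1 of the libraries (adjusted p = 0.0746 to 0.165). Tagln, the contractile gene SM22, could not be tested: it had 9, 11 and 0 counts in StiffY and 10 and 5 counts in SoftY, and in the deposited annotation its span overlaps Gm48529 and Pcsk7.

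Targets of YAP and TAZ, the coactivators that enter the nucleus in cells under tension and bind DNA through TEAD factors, rose in part. Of 27 tested, 6 rose and none fell, with a median log2 fold change of 0.17, and 2 rose without SoftY replicate 1. Ankrd1 (chr19:36089361-36097500), a muscle ankyrin repeat gene widely used as a YAP readout, had 1501, 1551 and 1551 CPM in StiffY and 763 and 897 CPM in SoftY (log2 fold change 0.89 ± 0.12, edgeR adjusted p = 2.97e-05). Ccn2, connective tissue growth factor, had 99.5, 106.1 and 100.3 CPM in StiffY and 56.4 and 55.7 CPM in SoftY (log2 fold change 0.86, adjusted p = 0.00226). These 2 kept their calls without any 1 library. Ccn1, the matricellular protein CYR61, averaged 2770 CPM in StiffY and 1994 CPM in SoftY, and its adjusted p was 0.119 without SoftY replicate 1. Axl, a receptor tyrosine kinase, averaged 1962 CPM in StiffY and 1541 CPM in SoftY, with an adjusted p of 0.172 without the same library. Thbs1, another common YAP target, had 1445, 1608 and 1718 CPM in StiffY and 1136 and 1376 CPM in SoftY and did not pass the test (adjusted p = 0.159).

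**Figure D3:**
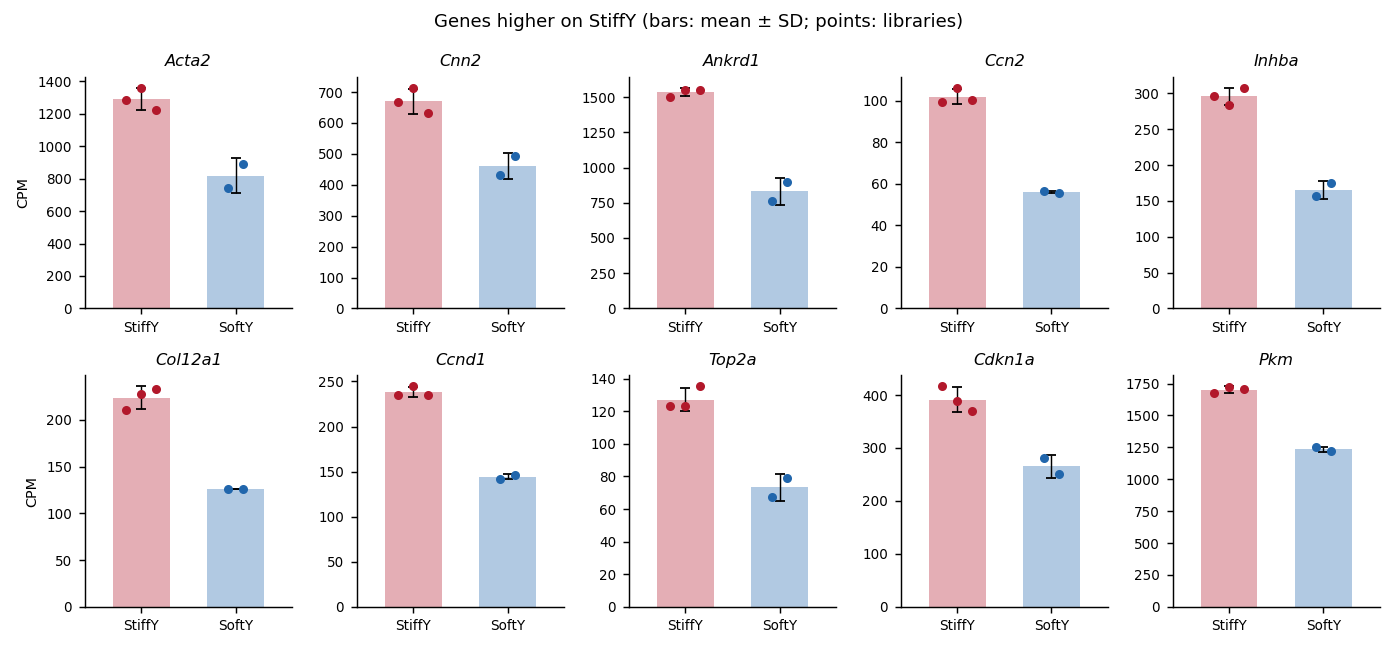
Levels in CPM of 10 genes that were higher in StiffY; points are libraries, bars are means and error bars are SD over 3 StiffY and 2 SoftY libraries. The folds are between 1.38 and 1.85, smaller than those of the lower genes, and the StiffY points lie above both SoftY points in each panel.

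Some promoters of genes that rose hold the letters of motifs that such factors are known to bind. Windows before the annotated start are shown for Ankrd1, Ccn1 and Acta2, with CATTCC or its complement GGAATG, the core of TEAD sites, in capitals, and for Cnn2 and Ripor2, with the CArG box of serum response factor, the partner of MRTF, in capitals. Sequences are from RefSeq on GRCm38.p6, written on the gene's strand.
Ankrd1, chr19:36119917-36120094, minus strand: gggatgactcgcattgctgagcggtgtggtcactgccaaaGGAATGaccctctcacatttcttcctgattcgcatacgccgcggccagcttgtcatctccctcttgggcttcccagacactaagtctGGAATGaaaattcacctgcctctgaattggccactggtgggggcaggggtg
Ccn1, chr3:145650038-145650133, minus strand: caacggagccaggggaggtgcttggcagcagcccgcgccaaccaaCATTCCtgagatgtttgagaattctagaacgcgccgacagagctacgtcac
Acta2, chr19:34255469-34255564, minus strand: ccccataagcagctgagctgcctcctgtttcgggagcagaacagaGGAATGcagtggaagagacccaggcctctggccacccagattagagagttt
Cnn2, chr10:79988499-79988598, plus strand: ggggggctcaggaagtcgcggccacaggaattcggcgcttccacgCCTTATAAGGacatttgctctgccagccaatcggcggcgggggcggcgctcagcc
Ripor2, chr13:24582088-24582187, plus strand: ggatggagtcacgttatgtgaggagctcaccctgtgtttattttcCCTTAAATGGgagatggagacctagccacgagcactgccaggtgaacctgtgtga

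Across the comparison the motifs were described by their share of promoters of 300 bases, counted on both strands, with no test. Promoters were matched by symbol for 201 of 272 higher genes, 222 of 314 lower genes and 9121 genes tested. A CArG box was found in 9 promoters of higher genes (4.48%) and in 1 of lower genes (0.45%), against 1.51% of all genes tested. The higher genes with a CArG box were Cnn2 and Ripor2 and, named after the search, Fhl1, Glipr2, Lmcd1, Lurap1l, Myl6, Lclat1 and Ckap2l. CATTCC was found in 15.4% of the higher, 22.5% of the lower and 14.4% of all promoters. The AP-1 motif TGANTCA was found in 10.9% of the higher, 7.66% of the lower and 6.01% of all promoters, and the E2F-like motif TTCGCGC in 3.98% of the higher, 3.60% of the lower and 3.62% of all promoters. A gene with several annotated starts had several windows, and with the first listed window alone the CArG box stood in 3.98% of higher, 0.45% of lower and 1.25% of all promoters. On that count CATTCC stood in 10.9% of higher, 16.7% of lower and 11.8% of all promoters, so that its order between higher and all genes turned round.

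Of 39 proliferation genes tested, 15 rose and none fell (median log2 fold change 0.49), with 9 higher without SoftY replicate 1 and 6 without SoftY replicate 2. Ccnd1, the G1 cyclin that follows adhesion and growth factor signals, had 234.5, 244.4 and 235.5 CPM in StiffY and 142.1 and 146.1 CPM in SoftY (log2 fold change 0.73 ± 0.11, edgeR adjusted p = 7.04e-05). Top2a, the topoisomerase of dividing cells, had 123.2, 123.4 and 135.2 CPM in StiffY and 67.4 and 79.1 CPM in SoftY (log2 fold change 0.80). Ccnb1, the mitotic cyclin, averaged 107.9 CPM in StiffY and 60.4 CPM in SoftY. Rrm2, a subunit of ribonucleotide reductase, averaged 316.2 CPM in StiffY and 204.3 CPM in SoftY. Kif20a, a kinesin of cytokinesis, averaged 139.9 CPM in StiffY and 87.0 CPM in SoftY. These 5 kept their calls without any 1 library. In the deposited table the span of Ccnd1 overlaps LTO1 and that of Kif20a overlaps Cdc23, and with the strand of counting unknown, reads of the overlap cannot be told apart.

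The factor p53 halts the cell cycle after DNA damage. Of 22 senescence and p53 genes tested, 9 rose and none fell (median log2 fold change 0.43), with 6 to 8 higher when 1 library was left out, the fewest without SoftY replicate 1. Eda2r, a receptor of the TNF receptor family, had 119.1, 114.3 and 134.3 CPM in StiffY and 62.7 and 68.7 CPM in SoftY (log2 fold change 0.89, edgeR adjusted p = 0.000171). Gdf15, a stress-induced cytokine, averaged 114.3 CPM in StiffY and 61.1 CPM in SoftY, and Zmat3, an RNA-binding p53 target, 91.1 CPM in StiffY and 51.4 CPM in SoftY. Cdkn1a, which encodes the inhibitor p21, had 416.1, 387.8 and 369.0 CPM in StiffY and 281.1 and 250.2 CPM in SoftY (log2 fold change 0.56, adjusted p = 0.0042), and 0.0915 was the adjusted p without SoftY replicate 2. Cdkn2a, the p16 locus of long-lasting senescence, stayed near the detection limit at 1.63, 1.57 and 7.46 CPM in StiffY and 3.32 and 5.19 CPM in SoftY (adjusted p = 0.697).

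Genes of the fibrillar matrix changed in both directions. Of 31 fibrillar matrix genes tested, 4 rose and 8 fell (median log2 fold change -0.15). Those that rose included Col12a1, a collagen that coats fibrils in loaded tissue, at 210.1, 227.9 and 233.0 CPM in StiffY and 126.1 and 126.2 CPM in SoftY (log2 fold change 0.82 ± 0.11, edgeR adjusted p = 2.98e-05), and Fn1, fibronectin, at a mean of 6393 CPM in StiffY against 4507 CPM in SoftY. The call of Fn1 was lost without SoftY replicate 1 (adjusted p = 0.162). Those that fell included the collagen VI chains Col6a1, at 878.3 CPM in StiffY and 1453 CPM in SoftY, and Col6a3, at 17.0 CPM in StiffY and 55.5 CPM in SoftY, and Emilin1, an elastic fibre glycoprotein, at 1007 CPM in StiffY and 1452 CPM in SoftY. Without SoftY replicate 1 the list held 2 higher and 8 lower genes, and without SoftY replicate 2 it held 4 higher and 5 lower.

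Among enzymes that cut matrix and their inhibitors the calls were also split. Of 21 proteases and inhibitors tested, 5 fell and 2 rose. Mmp2, gelatinase A, averaged 738.2 CPM in StiffY and 1232 CPM in SoftY (log2 fold change -0.74, edgeR adjusted p = 2.86e-05). Adamts15, a proteoglycan-cleaving protease, had 2.45, 1.18 and 0.83 CPM in StiffY and 17.6 and 25.1 CPM in SoftY. Mmp3, stromelysin, averaged 6103 CPM in StiffY and 7736 CPM in SoftY. Timp3, an inhibitor of metalloproteinases, rose to 1134, 1141 and 1037 CPM in StiffY, against 624.0 and 751.9 CPM in SoftY. Without SoftY replicate 1 the adjusted p was 0.0888 for Mmp3 and 0.0762 for Timp3, and 0 members rose and 3 fell; 3 also fell without StiffY replicate 2. Lox, the enzyme that cross-links collagen, averaged 1437 CPM in StiffY and 929.0 CPM in SoftY, with an adjusted p of 0.239 without SoftY replicate 1.

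Secreted signals changed in both directions. Against 2.12% higher and 2.45% lower over all genes tested, counts as small as those of the TGF-beta and growth factor lists below give no result about a list. Inhba, the activin subunit and a TGF-beta target, had 296.5, 284.1 and 306.8 CPM in StiffY and 156.7 and 174.6 CPM in SoftY (log2 fold change 0.84, edgeR adjusted p = 7.61e-06). Of 23 TGF-beta pathway genes tested, 2 rose, Inhba among them, and 1 fell (Tgfbr3, adjusted p = 0.0372, lost without any 1 of the libraries at 0.0504 to 0.192). Ereg, an EGF receptor ligand, had 102.8, 137.5 and 114.4 CPM in StiffY and 48.1 and 55.7 CPM in SoftY, 2.29-fold higher. Gas6, the ligand of Axl, averaged 559.5 CPM in StiffY and 887.5 CPM in SoftY. Bmper, a regulator of BMP signals, averaged 76.1 CPM in StiffY and 149.1 CPM in SoftY, and the secreted WNT inhibitors Sfrp2 and Dkk3 averaged 102.5 and 25.7 CPM in StiffY and 205.6 and 65.4 CPM in SoftY. In the growth factor list 2 of 24 tested rose and 4 fell, and 1 rose without either SoftY library and without StiffY replicate 1 or 2. Of 11 cartilage and bone genes tested, 3 fell (Cilp, Alpl and Mgp) and 1 rose, the chondrogenic transcription factor Sox9, at 1229 CPM in StiffY and 865.2 CPM in SoftY, whose call was lost without SoftY replicate 1 (adjusted p = 0.191).

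Of 27 glycolysis and hypoxia genes tested, 6 rose and none fell (median log2 fold change 0.32), with 2 higher without SoftY replicate 1 and 3 without StiffY replicate 1. Pkm, pyruvate kinase, had 1675, 1724 and 1707 CPM in StiffY and 1249 and 1220 CPM in SoftY (log2 fold change 0.46, edgeR adjusted p = 0.000229), and Aldoa, aldolase, averaged 1109 CPM in StiffY and 807.3 CPM in SoftY. Both kept their calls without any 1 library. Of 41 focal adhesion and actin genes tested, 3 rose. They included Zyx, the zyxin of focal adhesions, at 625.0 CPM in StiffY and 448.4 CPM in SoftY, and Diaph3, a formin, at 92.0 CPM in StiffY and 52.3 CPM in SoftY. Of 28 immediate early genes tested, 4 rose and 1 fell (Klf10), with 1 higher without SoftY replicate 1 and 2 without SoftY replicate 2. Of 31 sterol and fatty acid synthesis genes tested, 5 rose and 1 fell (Scd1), and 2 or 3 rose in every leave-out but that of StiffY replicate 2, where 5 did. Of 25 lysosomal genes tested, 3 fell, among them the protease Ctsb at 1173 CPM in StiffY and 1553 CPM in SoftY. Of 12 antigen presentation genes tested, 2 fell, Tapbp and H2-K1, the second of which shares sequence with other class I genes. The spans of Ctsb and Tapbp overlap Fdft1 and Zbtb22 in the deposited table. Beside 2.12% higher and 2.45% lower over all genes tested, the small counts of the focal adhesion, lysosomal and antigen presentation lists give no result about a list.

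In other lists few genes or none passed the test. None of 32 ribosomal protein genes, 25 nuclear genes of the respiratory chain and 10 Notch genes was called at an adjusted p under 0.05 by edgeR, with 2, 5 and 3 of them under 0.05 before adjustment, and DESeq2 called 0 in each of the 3 lists. Rpl4 had 530.7, 544.2 and 523.3 CPM in StiffY and 479.3 and 498.2 CPM in SoftY, and Sdha 424.2, 389.4 and 393.9 CPM in StiffY and 418.5 and 392.8 CPM in SoftY. Of the remaining lists, 2 genes rose in each of collagen processing (23 tested), basement membrane (19 tested) and unfolded protein response (22 tested). The lists of nuclear lamina (15 tested) and of mechanosensitive channels and caveolae (15 tested) also had 2 higher genes each. In amino acid response (25 tested), heat shock (15 tested) and mitochondrially encoded genes (11 tested) 1 gene each rose. Of 26 NRF2 genes 1 rose and 2 fell. Integrins and the BMP pathway had 1 call in each direction, of 20 genes tested in each list. Over all genes tested 2.12% were higher and 2.45% lower, and counts this small give no result about a list. Without SoftY replicate 1, 0 members of the lists of collagen processing, basement membrane, nuclear lamina and mechanosensitive channels were called.

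**Figure D4:**
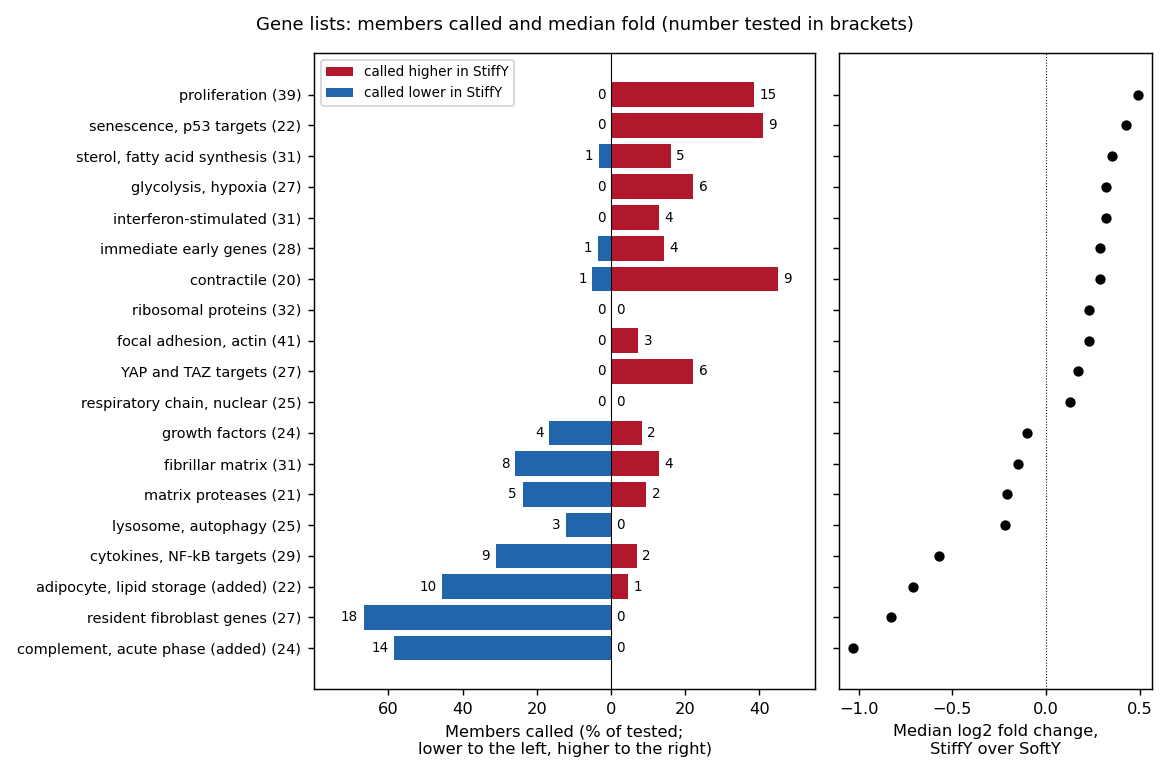
The left panel gives the percentage of tested members called higher (to the right) and lower (to the left) in StiffY for 19 gene lists, with the number called beside each bar and the number tested in brackets; the right panel gives the median log2 fold change of StiffY over SoftY. Resident fibroblast, complement and adipocyte genes lie at the bottom with 18, 14 and 10 members lower, and proliferation, p53 and contractile genes have 15, 9 and 9 members higher.

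Among called genes at a mean of at least 10 CPM, the 12 with the largest rises were Npas3, Zdhhc2, Mboat1, Igfbp2, Ccdc134, Cnn1, Ereg, Ripor2, Ccnk, Basp1, Slc35f1 and Aldoart1, with log2 fold changes from 1.92 (Npas3) to 1.11 (Aldoart1). Npas3, a transcription factor of the bHLH-PAS family, had 10.6, 14.1 and 19.9 CPM in StiffY and 3.98 and 3.46 CPM in SoftY (edgeR adjusted p = 0.00721). Of the 12, Ereg alone kept its call without any 1 library, and each of the others lost it without SoftY replicate 1, SoftY replicate 2 or both, with a highest adjusted p from 0.0757 (Slc35f1) to 0.465 (Ccnk). Aldoart1 is a retrotransposed copy of Aldoa, so its reads may belong in part to Aldoa, and the span of Zdhhc2 overlaps Cnot7.

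The stiffness response of young cells on young matrix was set against that of young cells on aged matrix by an interaction contrast in the same fit. The difference was called for 79 of 12841 genes (0.615%), with 15 higher (0.117%) and 64 lower (0.498%) on young matrix. Enpp2 averaged 13.9 CPM in StiffY and 308.0 CPM in SoftY, while it averaged 45.3 CPM in young cells on StiffA and 32.7 CPM on SoftA. The stiffness effects differed by -4.96 ± 0.28 on the log2 scale (SE; edgeR adjusted p = 1.38e-11). For Col15a1 the difference was -3.76, for Cnmd -3.28, for Steap4 -2.33, for Atp1b2, a subunit of the sodium pump, -2.15, and for Sparcl1, a matricellular protein, -2.02. Pdgfra averaged 808.3 CPM in StiffY and 1644 CPM in SoftY, and 921.9 CPM in StiffA and 950.7 CPM in SoftA, a difference in effect of -0.98 ± 0.13 (SE; adjusted p = 6.50e-05). Among genes with a more positive effect on young matrix, Top2a averaged 127.2 CPM in StiffY and 73.2 CPM in SoftY, and 71.7 CPM in StiffA and 84.2 CPM in SoftA (difference 1.03, adjusted p = 0.00174). Ankrd1 averaged 1461 CPM in StiffA and 1318 CPM in SoftA, and its difference was 0.74 ± 0.16 (SE; adjusted p = 0.0262). Tcf21, which did not differ in the comparison on young matrix, averaged 90.9 CPM in StiffA and 166.8 CPM in SoftA (difference 1.15, adjusted p = 0.0347). This contrast shares the StiffY and SoftY libraries with the comparison itself. The count of 79 ranged from 47 to 211 when 1 library was left out, with 211 without SoftA replicate 2 and 47 without SoftA replicate 1 or SoftY replicate 1.

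A second interaction contrast set the stiffness response on young matrix in young cells against that in aged cells. It was called for 169 genes (1.32%), with 43 higher (0.335%) and 126 lower (0.981%) in young cells. In aged cells the same change of gel, StiffY over SoftY, gave 7 called genes, all lower (0.0545%), against the 586 in young cells, with 3 libraries in each aged group. Without SoftY replicate 1 of young cells the count of differences was 105. Enpp2 averaged 49.7 CPM in aged cells on StiffY and 47.4 CPM on SoftY, a difference in effect of -4.54 ± 0.27 on the log2 scale (SE; edgeR adjusted p = 5.19e-11). Cilp differed by -4.60, Col15a1 by -4.11, Adamts15 by -3.71, Cnmd by -3.23, the complement component C7 by -3.2 and Pdgfra by -0.997. Ankrd1 averaged 661.9 CPM in aged cells on StiffY and 743.3 CPM on SoftY, a difference in effect of 1.05 ± 0.16 (SE; adjusted p = 0.000323). Ccn2 averaged 51.9 CPM in aged cells on StiffY and 59.6 CPM on SoftY (difference 1.07, adjusted p = 0.0132). Acta2 had differences of 0.69 between matrices and 0.71 between cell ages, with adjusted p of 0.0765 and 0.0545.

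Interferon-stimulated genes, which cells switch on after sensing interferon, were among the largest positive differences between young and aged cells. In young cells on young matrix 4 of 31 tested rose and none fell (median log2 fold change 0.32). In young cells on aged matrix 11 of the 31 rose, with a median of 0.84, and the difference between the matrices had a median of -0.52, with 0 called higher and 1 lower. Ifit3 had 290.0, 227.9 and 270.4 CPM in StiffY and 137.7 and 152.1 CPM in SoftY (log2 fold change 0.86, adjusted p = 0.002). Isg15, a ubiquitin-like modifier, had 83.2, 57.0 and 72.2 CPM in StiffY and 31.9 and 35.4 CPM in SoftY, and Ifit1 averaged 157.4 CPM in StiffY and 84.0 CPM in SoftY. In aged cells the order was turned round, with Ifit3 at 82.2 CPM on StiffY and 219.3 CPM on SoftY and Ifit1 at 46.5 CPM on StiffY and 182.6 CPM on SoftY. The differences between young and aged cells were 2.28 for Ifit3, 2.88 for Ifit1, 2.87 for Ifit3b, 1.81 for Isg15, 3.5 for Cmpk2 and 1.27 for Iigp1, all called. Within the comparison of young cells, however, none of the 31 was called without SoftY replicate 1 and 1 was called without SoftY replicate 2 or without StiffY replicate 1. Ifit3 and Ifit3b are near-identical copies, and reads may be split between them.

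**Figure D5:**
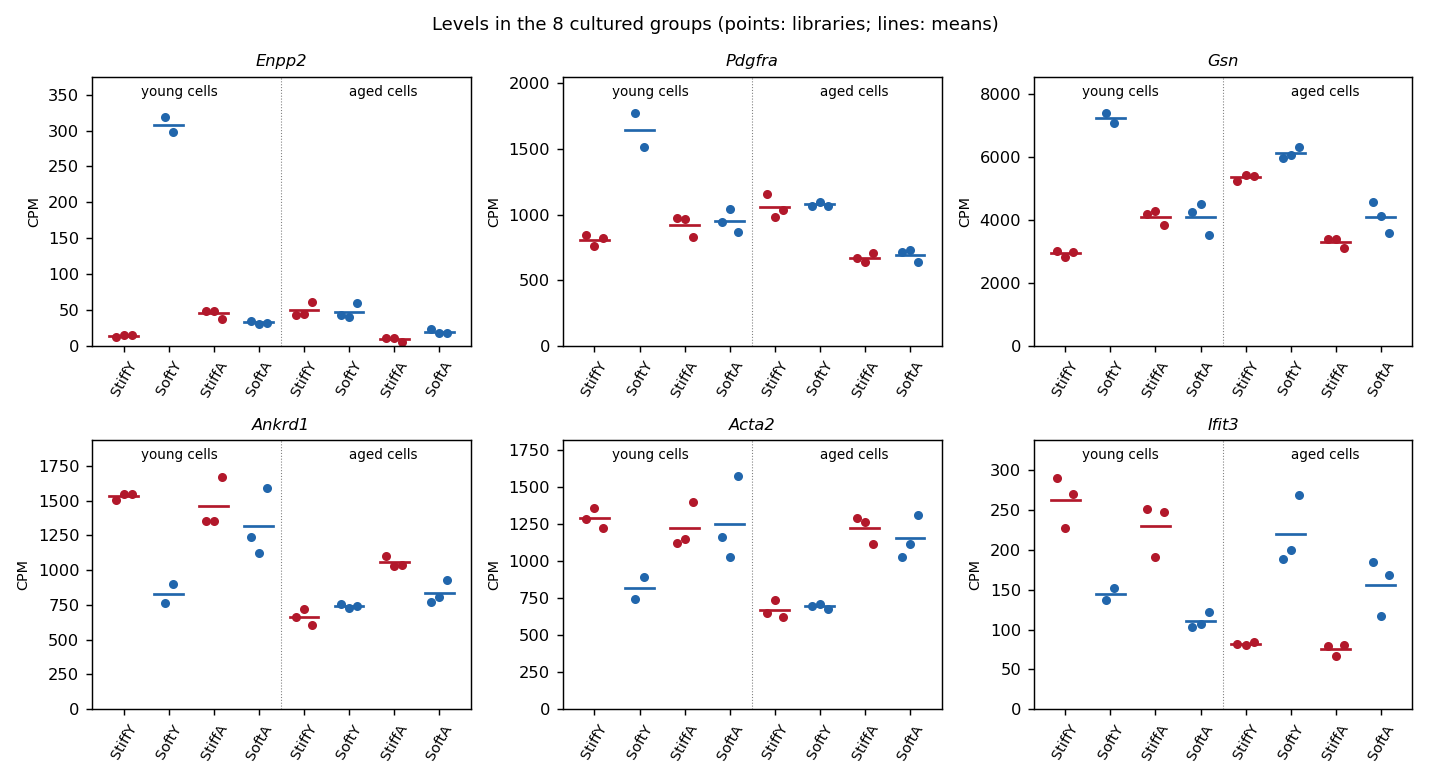
Levels in CPM of 6 genes in the 8 cultured groups, young cells to the left and aged cells to the right of the dotted line, with points for libraries and lines for means. Enpp2 and Pdgfra reach 308.0 and 1644 CPM in young cells on SoftY and are lower in every other group, and Ifit3 is higher on StiffY in young cells and lower on StiffY in aged cells.

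Set among all 8 cultured groups, the SoftY libraries of young cells stood at the edge more often than the StiffY libraries. Of the 314 genes called lower, the mean of SoftY was the highest of the 8 groups in 82.5%, and the mean of StiffY was the lowest in 45.9%. Of the 272 genes called higher, the mean of SoftY was the lowest of the 8 in 73.5% and that of StiffY the highest in 39.3%. Over all genes tested, SoftY was the highest in 20.2% and the lowest in 18.9%, and StiffY the highest in 12.2% and the lowest in 12.5%. The called genes were selected on the difference of these groups, so an edge position of one of them is favoured by the selection. The mean of SoftY also rests on 2 libraries. Their chi-square per degree of freedom, 5.75, was above that between StiffY libraries, 2.07 to 2.43. Their correlation, 0.965, lay within the range of the StiffY pairs, 0.962 to 0.973. Each of the other means rests on 3 libraries. What this adds to the edge positions was not tested. In young cells on aged matrix, which share no library with the comparison, 244 of the 314 lower genes had a negative fold of StiffA over SoftA, with a median of -0.17, and 185 of the 272 higher genes a positive one, with a median of 0.09. Over all genes tested the median fold there was -0.003, so negative and positive folds were about equally frequent. Over all genes, 27 were called there (0.21%), with 16 higher (0.125%) and 11 lower (0.0857%), and they took in 10 of the lower and 8 of the higher genes. In aged cells on young matrix, which likewise share no library with the comparison, 188 of the 314 (59.9%) had a negative fold, with a median of -0.04. Of the 272, 191 (70.2%) had a positive one, with a median of 0.07. The median over all genes tested was -0.002 in aged cells, so folds of both signs were about equally frequent.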

How the data were processed

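For each of 29 libraries, 20 ng of TRIZOL-extracted RNA went into a NEBNext low input kit, per the labels. The submitters' processing notes name STAR 2.7.8a and mm39, and the values that the authors deposited are raw counts for 55357 genes. Strand handling and the annotation release are not given in the sources used. The 23 cultured libraries were fitted together in 8 groups in R 4.3.3 with edgeR 4.0.16 (TMM, filterByExpr, quasi-likelihood F test, Benjamini-Hochberg adjustment over 12841 genes, calls under 0.05). An SE is derived from the fold change and its F statistic. CPM are counts over TMM-scaled totals. The script was tested on simulated data.

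Members and gene lists were chosen with earlier results of these data known, and 2 lists after the values were seen. Lists are described by counts and medians, without a set test. Genes were named by rule: the 12 largest folds per direction at a mean of at least 10 CPM without overlap, up to 5 called members per list, 2 members of lists with no call, 12 fixed genes, and the 6 largest per direction for each interaction. Promoters are RefSeq sequences on GRCm38.p6, a build other than that of the counts, matched by symbol. Alternatives were other scalings and filters, DESeq2 1.42.0, fits on fewer libraries, blocks by replicate number, and leaving out each library. Some items are not reported here.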

Additional observations from a re-analysis of the deposited data

Results flagged for a closer look

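The stiffness effect on young matrix differed from that on aged matrix, or differed between young and aged cells, by the interaction test of edgeR's quasi-likelihood fit in the following genes, picked as the largest differences among genes averaging 10 CPM or more in the contrast, or as genes fixed for naming. Genes at lower levels, such as Car3, had larger called differences and are left out. Between the matrices in young cells, the differences in log2 fold change were -4.96 for Enpp2, -3.76 for Col15a1, -3.28 for Cnmd, -2.33 for Steap4, -2.15 for Atp1b2, -2.02 for Sparcl1 and -0.98 for Pdgfra, and 1.22 for Arpin, 1.15 for Tcf21, 1.03 for Top2a, 1.01 for S100a10, 0.88 for Prss23, 0.84 for Scel and 0.74 for Ankrd1. Arpin, an inhibitor of the Arp2/3 complex, and Tcf21 did not pass the test in young cells on young matrix alone.

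Between young and aged cells on young matrix, the differences were -4.60 for Cilp, -4.54 for Enpp2, -4.11 for Col15a1, -3.71 for Adamts15, -3.23 for Cnmd, -3.2 for C7 and -1.0 for Pdgfra, and 3.5 for Cmpk2, 2.88 for Ifit1, 2.87 for Ifit3b, 2.28 for Ifit3, 1.81 for Isg15, 1.27 for Iigp1, 1.07 for Ccn2 and 1.05 for Ankrd1. Cmpk2 and Iigp1 did not pass the test in young cells (adjusted p of 0.893 and 0.991), and in aged cells both were lower on StiffY, with Cmpk2 at 3.01 CPM on StiffY and 30.4 CPM on SoftY.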

How the results depend on the processing

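No named gene that was called changed sign in the settings where it was tested, but 9 of 41 list medians did in at least 1 setting, among them basement membrane (0.12; -0.05 without SoftY replicate 1), mitochondrially encoded (0.15; -0.09), Notch (-0.11; 0.17) and, without SoftY replicate 2, the BMP pathway (0.12; -0.03). For StiffY over SoftY in young cells (586; 272 higher, 314 lower), RLE factors gave 579, upper-quartile factors 539 and DESeq2 512, and a fit of young cultured cells alone gave 309 (101 higher, 208 lower). Leaving out 1 library gave 254 to 455, with 70 to 174 higher and 184 to 281 lower; with 1 SoftY library left, that library is assumed to vary like the other groups. Of 150 named called genes, 80 kept the call in every leave-out. The difference between matrices (79; 15 higher, 64 lower) was 152 with DESeq2 (63 higher), 186 without a count filter (59 higher, 127 lower) and 33 in young cells alone (1 higher, 32 lower), had 43 higher genes at a minimum of 10 CPM, and lay between 47 and 211 over leave-outs (6 to 99 higher, 41 to 112 lower). The difference between cell ages (169) had 28 higher genes with upper-quartile factors, and 105 to 147 calls over leave-outs (17 to 35 higher, 88 to 113 lower). The cause was not tested.

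The replicate numbers pair only 2 libraries of each group. Deviations from the group means correlated at 0.27 for replicate 1 and 0.01 for replicate 2 (9335 genes), so the numbers were not taken as pairs. The deviations of the 2 SoftY libraries mirror each other (0.27 and -0.27 with StiffY replicate 1), so values for these libraries are not independent. By the number in the library name the values were 0.27 and 0.23, and over 15 pairs of young libraries from different groups they ran from -0.03 to 0.57, with 13 over 0.1; since not all passed, this number was not taken as a pair either. With the replicate number as a block there were 584 calls, and 23 higher genes in the difference between matrices; replicates 1 and 2 alone with a replicate block gave 767 (472 lower). With the library number as a replicate block there were 847, and, added after seeing the data, 267 (127 higher, 140 lower) between matrices and 286 (110 higher) between ages; with it 9 focal adhesion genes, 9 sterol genes and 7 immediate early genes were higher, against 3, 5 and 4. Depth limits genes under 10 CPM, which rest on 12 to 31 counts or fewer per library.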
